A study of Mus musculus with 16 samples.

Results

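The genes described here are the integrin chains and a set of other adhesion genes of mouse CD4+ T cells. They were taken as every row whose symbol has the form of an integrin alpha or beta chain, plus 16 listed adhesion genes. This gave 39 genes of the 11171 in the conventional T cell table and 35 of the 11067 in the regulatory T cell table, with 35 in both. They comprised 16 alpha chains, 7 beta chains, 7 ligands and receptors of adhesion, 7 activators and adaptors of integrins, and Adam8 and Sema4a. Itga1, Itgad, Itgax and Itgb4 had a line in the conventional T cell table and none in the regulatory T cell table. Of 28 symbols in the RefSeq annotation with the integrin form, Itga8, Itga11, Itgb6, Itgb2l and Itgbl1 were not analysed here.

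The mice were of the strain B6.Cg-Foxp3tm2Tch/J with genotype WT, in which a GFP reporter marks cells that make FOXP3, the transcription factor of regulatory T cells. They received 50 mg/kg venetoclax, which blocks the anti-apoptotic protein BCL-2, or vehicle for 14 days, and total RNA of T cells from spleen and lymph node was sequenced. The 4 groups were CD4+ FOXP3+ cells (Treg) under venetoclax, Treg under vehicle, CD4+ FOXP3- cells (Tcon) under venetoclax and Tcon under vehicle, with 4 libraries each. All groups carried the same reporter allele, and the labels give neither the age nor the sex of the mice. The labels call the 4 libraries of a group biological replicates without naming the animals, so p-values measure only the spread between these samples.

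Integrins are heterodimers of an alpha and a beta chain that bind cells to each other and to matrix. On T cells the chain encoded by Itgal pairs with that of Itgb2 to form LFA-1, the receptor of Icam1 and Icam2. Chains of Itga4 pair with those of Itgb1 or Itgb7 in homing to inflamed tissue and gut, and those of Itgae pair with Itgb7 to bind E-cadherin on epithelium. The pair of Itgav and Itgb8 is known on Treg for releasing active TGF-beta from its latent form. Integrins bind strongly only once activated from inside the cell, where the small GTPases of Rap1a and Rap1b and the adaptor of Apbb1ip bring talin (Tln1) to the beta chain, with kindlin-3 (Fermt3) as its partner.

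Libraries held 21335006 to 25027038 reads in Treg and 22982210 to 24960570 in Tcon. Foxp3 reached 836.1 ± 67.75 CPM (reads scaled to the library total) in vehicle Treg and 29.05 ± 2.283 CPM in vehicle Tcon (SD, n = 4 each), and the 6 T cell markers summed to between 2909 and 3597 CPM in every library. Of 6 platelet markers only Gp1ba had a line, at no more than 4.764 CPM in any library, and it fell in venetoclax Treg by 0.70 on the log2 scale (adjusted p = 0.0209, limma). Of 10 myeloid markers 4 had a line in Treg and 7 in Tcon, and their sum was at most 8.441 CPM in any library. Other lists reached higher sums. The highest were 35.99 CPM for erythroid markers and 21.14 CPM for B cell markers, both in venetoclax Treg. For NK cell markers it was 33.68 CPM in venetoclax Tcon, and for CD8 markers 22.72 CPM in vehicle Tcon. The part of these cells in the results below was not tested. Reads of Y-linked genes were present in vehicle replicate 2 and in venetoclax replicates 1, 2 and 3 of both subsets, at a lower level in venetoclax replicates 1 and 3 (mean log2 of Ddx3y and Kdm5d of 9.71 to 10.92) than in replicates 2 (11.74 to 11.89). In the other libraries this mean was at most 0.50. The Y-linked level therefore differed between the treatments.

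Promoter windows are shown for 4 of the genes that passed below, so that the letters upstream of them can be read. Other genes that passed, such as Itgav and Cd44, had windows that are not shown. They are from RefSeq on GRCm38.p6 and run from 250 bases before to 50 after a transcription start, 5′ to 3′ on the strand of the gene. Adam8 and Itgb8 had among the highest folds in Treg, Icam1 encodes the ligand of LFA-1, and Sema4a changed in opposite directions in the 2 subsets. Capitals mark a match to the STAT motif TTCNNNGAA in Icam1 and to the NF-kB consensus in Sema4a.
Adam8 (chr7:139992513-139992812, minus strand): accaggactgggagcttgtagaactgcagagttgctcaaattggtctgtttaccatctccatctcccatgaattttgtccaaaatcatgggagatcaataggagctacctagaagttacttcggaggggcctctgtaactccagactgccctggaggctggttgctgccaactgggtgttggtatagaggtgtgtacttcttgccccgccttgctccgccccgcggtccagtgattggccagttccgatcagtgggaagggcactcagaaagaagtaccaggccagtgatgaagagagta
Itgb8 (chr12:119238227-119238526, minus strand): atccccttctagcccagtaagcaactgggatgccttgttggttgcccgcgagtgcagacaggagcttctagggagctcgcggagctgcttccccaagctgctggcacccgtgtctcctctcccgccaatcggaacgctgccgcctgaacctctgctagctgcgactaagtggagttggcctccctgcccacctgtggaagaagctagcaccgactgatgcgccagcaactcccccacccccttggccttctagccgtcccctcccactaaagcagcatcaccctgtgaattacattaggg
Icam1 (chr9:21015690-21015989, plus strand): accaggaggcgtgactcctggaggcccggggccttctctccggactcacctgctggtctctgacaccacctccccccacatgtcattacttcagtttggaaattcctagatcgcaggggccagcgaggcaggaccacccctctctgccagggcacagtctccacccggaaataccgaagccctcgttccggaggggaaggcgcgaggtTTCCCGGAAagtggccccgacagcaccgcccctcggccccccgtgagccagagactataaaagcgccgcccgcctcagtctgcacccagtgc
Sema4a (chr3:88459052-88459351, minus strand, 1 of its 4 windows): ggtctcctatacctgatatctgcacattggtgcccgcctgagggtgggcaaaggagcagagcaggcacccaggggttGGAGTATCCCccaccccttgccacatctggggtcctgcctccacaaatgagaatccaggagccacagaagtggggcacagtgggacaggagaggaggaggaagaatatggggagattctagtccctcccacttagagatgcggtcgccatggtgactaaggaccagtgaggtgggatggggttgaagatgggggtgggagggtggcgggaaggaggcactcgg

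Windows were found for 26 of the 39 genes, 30 in all. They were searched on both strands for AP-1 (TGANTCA), STAT (TTCNNNGAA), the NF-kB consensus, RUNX (TGTGGT) and ETS (CCGGAAG). These motifs occur in 7.81%, 8.3%, 8.46%, 16.8% and 8.86% of all 32851 windows in the table. Each of the 5 was found in 1 of the 8 windows of the 7 genes that rose in venetoclax Treg and had a window. Those of AP-1, NF-kB, RUNX and ETS all lay in windows of Itga3, whose Treg call was lost under 10 of 18 alternatives. The Icam1 window held the STAT match at bases 209 to 217, with its first base 42 bases before the start. The NF-kB match of Sema4a lay in the window shown, and the other windows of Sema4a held none of the 5 motifs. The windows of Adam8, Itgb8, Itgav, Itgb1 and Cd44 held none of the 5 motifs, which says only that these letters are not in these windows.

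Treg and Tcon differed in their integrins under vehicle. Itgae averaged 126.8 ± 19.06 CPM in vehicle Treg and 1.283 ± 0.5101 CPM in vehicle Tcon, and Itgb8 averaged 21.34 ± 2.228 CPM in vehicle Treg and 0.7278 ± 0.5465 CPM in vehicle Tcon (SD, n = 4 each). The ratios of means were 98.8-fold and 29.3-fold. Sema4a, a membrane semaphorin, was lower in Treg, at 37.36 ± 4.258 CPM against 166.9 ± 23.81 CPM in Tcon, and Itgb3, the beta chain that pairs with Itgav, averaged 80.33 ± 6.82 CPM in Treg and 220.0 ± 25.98 CPM in Tcon. In these bulk libraries, fewer cells of a type and less RNA per cell cannot be told apart.

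The 2 subsets have separate tables, so their levels are set side by side as CPM, with no test. In vehicle libraries 23 of the 35 shared genes had all 4 Treg libraries on one side of all 4 Tcon libraries, 17 higher and 6 lower in Treg. Over all 10774 shared genes that share was 36.5%, with 24.5% higher and 12.0% lower in Treg. The median log2 ratio of Treg over Tcon was 0.19 for the 35 genes and 0.04 for all shared genes. Other genes higher in vehicle Treg were Adam8 (3.42-fold), a membrane metalloprotease that sheds surface proteins, Icam1 (2.63-fold), Itgav (2.13-fold), Itga5 (2.11-fold), the fibronectin receptor chain, and Cd44 (1.97-fold), the hyaluronan receptor. Lower in vehicle Treg were also Itgam, Itga7, Icam2 and Rap1b, at ratios of 0.379, 0.424, 0.702 and 0.773. The chains of LFA-1 differed less, at 1.24-fold for Itgal and 1.09-fold for Itgb2, though neither gene's groups overlapped. Among activators and adaptors the groups overlapped for Rap1a, Tln1, Vcl, Zyx and Apbb1ip.

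Under venetoclax 21 of the 35 genes did not overlap between Treg and Tcon, 15 higher and 6 lower in Treg, where 48.6% of all shared genes did not, 30.2% higher and 18.3% lower. Itgae averaged 212.4 ± 24.1 CPM in venetoclax Treg and 1.462 ± 0.4444 CPM in venetoclax Tcon. Sema4a averaged 28.13 ± 3.022 CPM in venetoclax Treg and 242.9 ± 21.4 CPM in venetoclax Tcon, a ratio of 8.64 in favour of Tcon, against 4.47 in vehicle. Itga7, Itgb2, Cd48 and Selplg, whose vehicle groups did not overlap, overlapped under venetoclax, and Pecam1 and Itgb5 no longer did.

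Levels of different genes were compared per kilobase of exon. In vehicle Treg the highest were Cd2, the receptor of Cd48, at 363.8 CPM per kb, Itgb7 at 310.8 and Itgb2 at 200.3 CPM per kb. In vehicle Tcon the highest were Itgb7 at 271.9, Cd2 at 225.8 and Itgb2 at 183.3 CPM per kb. Among alpha chains Itgal led in both subsets, with 128.2 CPM per kb in vehicle Treg and 103.4 CPM per kb in vehicle Tcon, and Itga4 followed with 50.58 and 51.82 CPM per kb in those groups. Itgae, at 27.68 CPM per kb, lay next to Itga6 and Icam2 in vehicle Treg, while in vehicle Tcon its 0.2801 CPM per kb lay among the lowest. Itgb8 reached 1.93 CPM per kb in vehicle Treg, below its partner Itgav at 7.275 CPM per kb. Itgb4 and Itgb5 were the lowest in vehicle Tcon, at 0.01658 and 0.05388 CPM per kb.

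**Figure D1:**
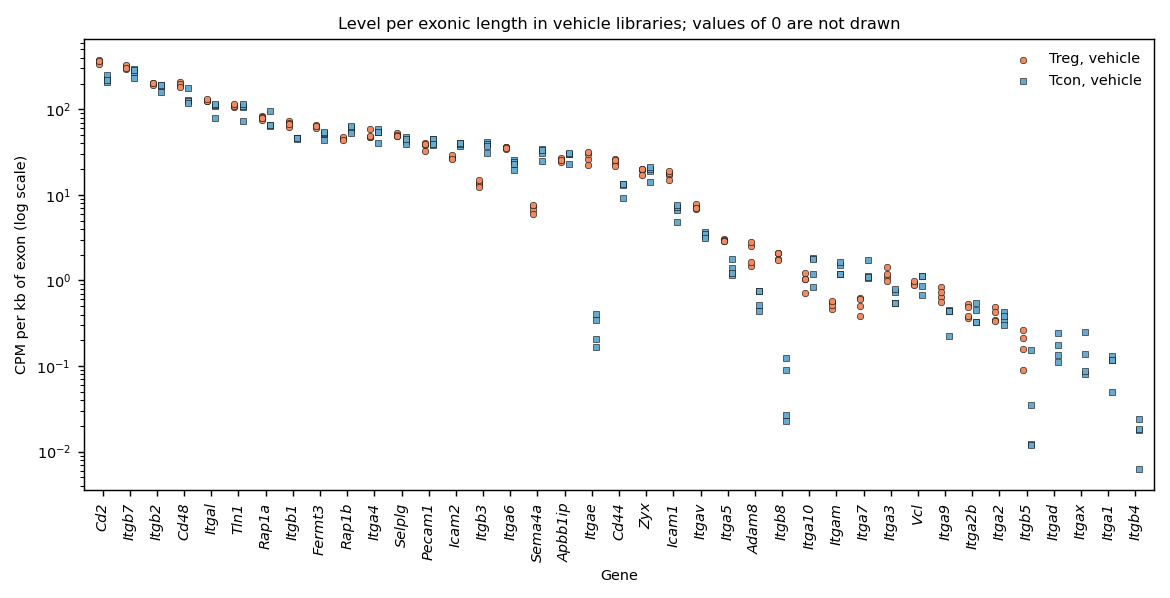
Level of each gene in CPM per kb of exon (log axis) in the 4 vehicle Treg libraries (circles) and the 4 vehicle Tcon libraries (squares), ordered by the higher subset mean. Itgae and Itgb8 lie far higher in Treg, and Sema4a and Itgb3 lie higher in Tcon. Adam8 and Icam1 also lie higher in Treg, and Itgam and Itga7 higher in Tcon.

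In Treg, venetoclax was accompanied by higher transcripts of several integrin chains and of Adam8. Of the 35 genes 13 passed an adjusted p of 0.05, which is 37.1%, where 19.6% of all 11067 genes did (limma on log2 of the normalized count plus 1, adjusted over the whole table). Of these 10 were higher and 3 lower, against 10.7% and 8.81% of all genes. The 10 were Itga3, Itgae, Itgal and Itgav of 13 alpha chains, Itgb1, Itgb2 and Itgb8 of 6 beta chains, Cd44 and Icam1, and Adam8. The 3 lower genes were Pecam1, Icam2 and Sema4a, and none of the 7 activators and adaptors passed. The median log2 change was 0.05 for the 35 genes and 0.00 for all genes. Adjusted for the Y-linked level, 10 of the 35 passed, where 14.4% of all genes did, and Itga3, Itgb2 and Icam2 no longer did. Scaling by the upper quartile gave 8 higher and 4 lower of the 35, where 20.9% of all genes passed. Over all genes it gave 968 higher and 1350 lower, against 1189 higher and 975 lower with the authors' scaling.

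Itgae, the E-cadherin receptor chain (chromosome 11, 73090505 to 73147449), had normalized counts of 4881.2, 4426.4, 4944.1 and 5693.8 in venetoclax Treg and 2858.4, 3193.7, 2484.7 and 3497.4 in vehicle Treg. All 4 venetoclax libraries were above all 4 vehicle libraries. The log2 change was 0.73 ± 0.09 (SE; adjusted p = 0.000337, limma), a 1.66-fold rise. In Tcon it had at most 47.4 normalized counts, and the log2 change of 0.21 ± 0.31 did not pass (adjusted p = 0.755). The change in Treg minus that in Tcon was 0.52, with a 95% interval of -0.15 to 1.20, so a difference between subsets was not shown.

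Itgb8 (chromosome 12, 119162803 to 119238276), the partner chain of Itgav, had 821.9, 776.4, 819.3 and 924.6 normalized counts in venetoclax Treg and 460.3, 547.2, 465.4 and 553.0 in vehicle Treg. The groups did not overlap, and the log2 change was 0.72 ± 0.08 (adjusted p = 0.00016, limma). Tcon held few reads of Itgb8, with 6.125 to 34.56 normalized counts under venetoclax and 5.9 to 31.78 under vehicle, and its interval for the change there was wide, at -1.40 to 1.44. Itgav had 2480.1, 2132.8, 2740.2 and 2601.1 normalized counts in venetoclax Treg and 1891.0, 1955.8, 1776.9 and 1795.7 in vehicle Treg, again without overlap. Its log2 change was 0.42 ± 0.07 (adjusted p = 0.00156, limma), so both genes of the TGF-beta-releasing pair rose. In Tcon Itgav had 1093.3, 993.3, 1046.4 and 1116.9 normalized counts under venetoclax and 931.3, 811.7, 944.6 and 790.5 under vehicle. Those groups did not overlap either, but the log2 change of 0.29 ± 0.08 missed the threshold (adjusted p = 0.0582).

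Itgb1, which pairs with many alpha chains, had 8972.8, 7075.1, 8432.1 and 9413.4 normalized counts in venetoclax Treg and 6944.0, 5899.6, 6789.1 and 6577.7 in vehicle Treg. Venetoclax replicate 2 lay closest to the vehicle libraries, and the groups did not overlap. The log2 change was 0.37 ± 0.08 (adjusted p = 0.00708, limma). Without venetoclax replicates 1 and 3, the libraries with partial Y-linked reads, it was 0.32 and no longer passed (adjusted p = 0.101). Itga3, a laminin-binding partner of Itgb1, had 223.5, 196.4, 228.0 and 185.3 normalized counts in venetoclax Treg and 146.0, 161.2, 136.3 and 194.8 in vehicle Treg. Vehicle replicate 4 lay within the venetoclax range, and the log2 change of 0.39 ± 0.13 passed narrowly (adjusted p = 0.0429, limma). The call of Itga3 was lost with edgeR (adjusted p = 0.0517), with upper quartile scaling (0.0551), with the Y-linked covariate (0.13), without venetoclax replicates 1 and 3 (log2 change 0.27, 0.369), and without vehicle replicate 1, 2 or 3 or venetoclax replicate 1, 2 or 3, where leaving out 1 of these gave up to 0.121.

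The 2 chains of LFA-1 rose in Treg by smaller amounts. Itgal had 23896.7, 24312.5, 22260.6 and 24573.4 normalized counts in venetoclax Treg and 19374.2, 20022.8, 19864.8 and 20723.3 in vehicle Treg. Itgb2 had 16307.4, 16518.0, 16186.0 and 15788.9 in venetoclax Treg and 14399.0, 14645.5, 14295.7 and 14699.5 in vehicle Treg. Neither gene's groups overlapped, and the vehicle libraries of Itgb2 varied by only 1.33% (coefficient of variation). The log2 changes were 0.25 ± 0.05 for Itgal (adjusted p = 0.00594, limma) and 0.16 ± 0.05 for Itgb2 (adjusted p = 0.0254, limma). The Itgb2 call was lost with upper quartile scaling (adjusted p = 0.0528), with the Y-linked covariate (0.0771), without venetoclax replicates 1 and 3 (0.164), and without vehicle replicate 1 or 3 or venetoclax replicate 1, 2 or 3, where leaving out 1 gave up to 0.0665.

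The LFA-1 ligands moved in opposite directions in Treg. Icam1 (chromosome 9, 21015940 to 21028814) had 2618.0, 2126.7, 2297.7 and 2181.5 normalized counts in venetoclax Treg and 1769.3, 1837.2, 1565.6 and 1962.0 in vehicle Treg. Its groups did not overlap, and the log2 change was 0.37 ± 0.08 (adjusted p = 0.00516, limma). An antisense gene, Gm47079, shares 11.7% of its exonic bases, and whether strand was used in counting is not given. Icam2 had 956.4, 1080.6, 927.6 and 1146.4 normalized counts in venetoclax Treg and 1223.4, 1219.2, 1333.9 and 1198.1 in vehicle Treg. It was lower in every venetoclax library, with a log2 change of -0.28 ± 0.07 (adjusted p = 0.0159, limma). That call was lost with the Y-linked covariate (adjusted p = 0.0656), without vehicle replicate 3 (0.0518) and without venetoclax replicate 1 (0.0558). Without venetoclax replicates 1 and 3 the log2 change of Icam2 was -0.16 and did not pass either (adjusted p = 0.226). Icam1 no longer passed without venetoclax replicates 1 and 3 (adjusted p = 0.0815).

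Cd44 had 5015.8, 4705.2, 4838.8 and 5084.1 normalized counts in venetoclax Treg and 4220.9, 3725.3, 3536.2 and 4126.4 in vehicle Treg. The groups did not overlap, and the log2 change was 0.33 ± 0.06 (adjusted p = 0.00213, limma). Pecam1 (CD31), a homophilic adhesion receptor, had 3968.1, 3972.5, 4434.9 and 4088.4 normalized counts in venetoclax Treg and 5878.3, 5631.2, 5980.0 and 4880.8 in vehicle Treg. It fell by 0.44 ± 0.06 on the log2 scale (adjusted p = 0.000717, limma), with no overlap. Pecam1 is also made by platelets and endothelium, whose marker lists summed to at most 4.764 and 1.076 CPM in any Treg library. Gp1ba fell as well, and its part in the change of Pecam1 was not tested. In Tcon Pecam1 had 5080.9, 5221.5, 5333.7 and 5724.8 normalized counts under venetoclax and 6545.3, 6372.3, 5975.9 and 5678.6 under vehicle. Venetoclax replicate 4 lay within the vehicle range there, and the log2 change of -0.20 ± 0.07 did not pass (adjusted p = 0.118).

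Adam8 (chromosome 7, 139978932 to 139995207) had the highest fold of the 13. It had 501.6, 533.2, 524.7 and 490.6 normalized counts in venetoclax Treg and 273.5, 305.9, 166.5 and 180.5 in vehicle Treg. The venetoclax libraries lay close together, and the vehicle libraries spread more widely below them. The log2 change was 1.19 ± 0.16 (adjusted p = 0.000435, limma), a 2.28-fold rise. In Tcon Adam8 had 103.8, 88.81, 96.77 and 97.77 normalized counts under venetoclax and 57.04, 79.97, 51.72 and 80.44 under vehicle. Those groups did not overlap, but the log2 change of 0.54 ± 0.17 missed the threshold (adjusted p = 0.0909). The difference between the changes in Treg and Tcon, 0.65 with a 95% interval of 0.11 to 1.18, did not pass over all genes (adjusted p = 0.343).

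**Figure D2:**
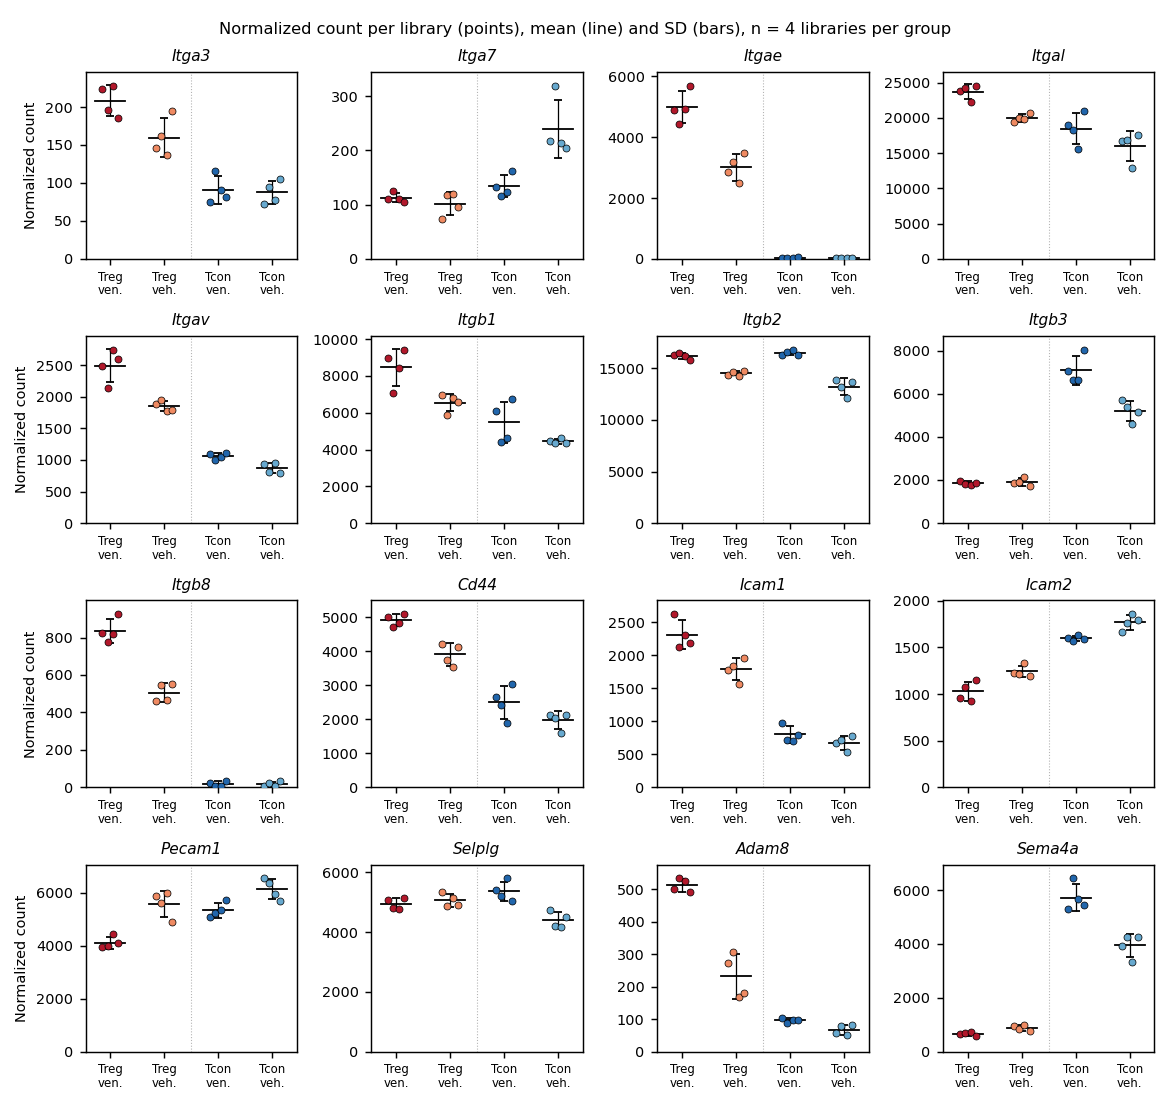
Normalized counts of the 16 genes that passed in Treg or Tcon, per library (points), with the mean (line) and SD (bars) of 4 libraries; groups run from venetoclax Treg, vehicle Treg and venetoclax Tcon to vehicle Tcon, and the dotted line separates the 2 tables, which were normalized separately. Itgae, Itgb8 and Adam8 show the widest relative gap between venetoclax and vehicle Treg, and Sema4a, Itgb3 and Itga7 show theirs in Tcon.

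The other genes of Treg did not pass. Itga2, a collagen receptor chain, had a log2 change of 0.52 ± 0.18 (adjusted p = 0.0534) and Itgb5 one of 0.89 ± 0.32 (adjusted p = 0.0673, limma), on means of 97.4 and 27.91 normalized counts in venetoclax Treg. Itga5 had 288.0, 260.5, 324.6 and 299.6 normalized counts in venetoclax Treg and 350.4, 342.3, 345.6 and 335.4 in vehicle Treg. It lay lower in every venetoclax library, with a log2 change of -0.23 ± 0.08 that passed only with upper quartile scaling (adjusted p = 0.0711, and 0.0446 with that scaling). The gut-homing chains Itga4 and Itgb7 had log2 changes of -0.03 ± 0.07 and 0.06 ± 0.05. Among activators and adaptors the log2 changes in Treg ran from -0.03 for Rap1b to 0.11 for Apbb1ip, with Tln1 at 0.02 ± 0.06 and Fermt3 at 0.04 ± 0.05. Their 95% intervals lay between -0.15 and 0.28. In all, 10 of the 35 genes had every venetoclax Treg library above every vehicle Treg library and 4 had every one below, where 22.7% of all genes did not overlap.

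In Tcon fewer of these genes passed, and the spread between libraries was wider. Of the 39 genes 5 passed, which is 12.8%, where 6.91% of all 11171 genes did. Sema4a, Itgb3, Itgb2 and Selplg were higher and Itga7 was lower under venetoclax, where 3.92% and 2.99% of all genes were. The median log2 change was 0.13 for the 39 genes and 0.00 for all genes, and the median standard error was 0.15 in Tcon, against 0.07 in Treg. In Tcon venetoclax replicates 2, 3 and 4 correlated best with the vehicle library of their number, by their deviations from group means. Replicate 1 did not (r = 0.119), and Treg had the same pattern, so it is not shown that numbers pair these libraries. With the number as a block 13 of the 39 passed, 10 higher and 3 lower, where 16.8% of all genes did. The added genes were Cd44, Fermt3, Itgal, Itgam, Itgav and Itgb7 (higher) and Itga4 and Itga6 (lower). DESeq2 on the recovered reads passed 10 of the 39, where 12.2% of all genes did. Adjusted for the Y-linked level, 3 passed, where 3.06% of all genes did, and Itgb2 and Selplg no longer did. Without venetoclax replicates 1 and 3, 0 of the 39 passed by limma, where 1.04% of all genes did and 10 of the 39 had an unadjusted p under 0.05, and leaving out 1 library gave from 1 (without venetoclax replicate 1) to 9 (without vehicle replicate 3). Over all 11171 genes, leaving out 1 library gave 306 to 1244, against 772 with all libraries.

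Sema4a (chromosome 3, 88435959 to 88461182) had 5312.9, 6432.2, 5677.5 and 5455.2 normalized counts in venetoclax Tcon and 3938.4, 4247.2, 3339.4 and 4242.5 in vehicle Tcon. All venetoclax libraries were above all vehicle libraries, and the log2 change was 0.54 ± 0.09 (adjusted p = 0.00736, limma). In Treg it had 651.7, 697.0, 732.4 and 562.7 normalized counts under venetoclax and 937.2, 846.8, 1003.8 and 761.1 under vehicle. There every venetoclax library was below every vehicle library, with a log2 change of -0.42 ± 0.10 (adjusted p = 0.0085, limma). Sema4a thus rose in Tcon and fell in Treg, and the difference between the changes was -0.96 ± 0.14 (adjusted p = 0.00288, limma). It was the 1 gene of these that passed in both subsets with opposite signs, and Itgb2 was the 1 that passed in both with the same sign. The Tcon call was lost without venetoclax replicates 1 and 3 (adjusted p = 0.074), and the Treg call was kept under all 18 alternatives.

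Itgb3 (chromosome 11, 104608000 to 104670476) had 7074.2, 6625.1, 6612.9 and 8024.8 normalized counts in venetoclax Tcon and 5700.6, 5370.7, 4603.8 and 5128.4 in vehicle Tcon. The groups did not overlap, and the log2 change was 0.45 ± 0.09 (adjusted p = 0.0143, limma). It was not called without venetoclax replicate 1 (adjusted p = 0.0578) or without venetoclax replicates 1 and 3 (0.112). In Treg Itgb3 had 1968.5, 1823.5, 1771.1 and 1845.4 normalized counts under venetoclax and 1863.7, 1896.5, 2147.8 and 1723.5 under vehicle, which overlapped, with a log2 change of -0.04 ± 0.06. The difference of -0.48 ± 0.11 passed (adjusted p = 0.0415, limma). Itgb3 is also a platelet integrin, and its partner in platelets, Itga2b, had 33.27 to 50.02 normalized counts in venetoclax Tcon and 42.28 to 68.52 in vehicle Tcon. Gp1ba, the 1 platelet marker with a line, had a log2 change of -0.55 in Tcon that did not pass (adjusted p = 0.117, limma), and the part of platelets in the Itgb3 result was not tested.

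Itga7, a laminin receptor chain (chromosome 10, 128933421 to 128958286), had 133.0, 116.4, 123.0 and 162.0 normalized counts in venetoclax Tcon and 217.3, 318.9, 214.3 and 204.6 in vehicle Tcon. All venetoclax libraries were below all vehicle libraries, and vehicle replicate 2 stood above the rest of its group. The log2 change was -0.82 ± 0.16 (adjusted p = 0.0144, limma). The call was lost without venetoclax replicate 1 (adjusted p = 0.0535) or venetoclax replicate 2 (0.0504), and without venetoclax replicates 1 and 3 together (0.184). In Treg it had 110.1, 125.2, 111.1 and 104.7 normalized counts under venetoclax and 73.97, 117.6, 119.8 and 95.96 under vehicle, which overlapped. The difference between the changes was 0.99 ± 0.24 (adjusted p = 0.0482, limma).

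Itgb2 and Selplg rose modestly in Tcon. Itgb2 had 16298.2, 16548.5, 16783.4 and 16345.9 normalized counts in venetoclax Tcon and 13883.2, 13223.3, 12124.9 and 13706.8 in vehicle Tcon, with a log2 change of 0.32 ± 0.07 (adjusted p = 0.0253, limma). Selplg, which encodes the P-selectin ligand PSGL-1, had 5412.0, 5223.5, 5798.4 and 5058.2 in venetoclax Tcon and 4746.7, 4204.2, 4184.8 and 4522.6 in vehicle Tcon. Its log2 change was 0.28 ± 0.07 (adjusted p = 0.038, limma), and neither gene's groups overlapped. Both calls were lost without vehicle replicate 2 and without any 1 of the 4 venetoclax replicates, and that of Selplg also without vehicle replicate 4. The adjusted p then reached 0.0883 for Itgb2 and 0.124 for Selplg. With the Y-linked covariate it was 0.106 for Itgb2 and 0.132 for Selplg, and without venetoclax replicates 1 and 3 it was 0.251 and 0.371 for these genes in turn.

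The partner chain Itgal had 19031.1, 18297.1, 15650.3 and 20940.0 normalized counts in venetoclax Tcon and 16701.6, 16907.8, 12950.2 and 17585.9 in vehicle Tcon. The lowest library of each group was replicate 3, and the groups overlapped. The log2 change of 0.21 ± 0.12 did not pass (adjusted p = 0.35), but did with the replicate block (0.0331). Cd44 had 2665.0, 2422.4, 1881.1 and 3033.7 in venetoclax Tcon and 2135.9, 2027.1, 1581.0 and 2120.3 in vehicle Tcon. Here too replicate 3 was the lowest of both groups, and the log2 change of 0.34 ± 0.14 passed only in 2 alternatives, the replicate block (adjusted p = 0.00358) and the fit without replicates 3 of both groups. Itgb1 had 6102.5, 4397.7, 4642.2 and 6741.0 normalized counts in venetoclax Tcon and 4470.4, 4368.1, 4634.4 and 4345.8 in vehicle Tcon. Venetoclax replicate 2 lay within the vehicle range and replicates 1 and 4 far above it. Fermt3, the one activator or adaptor added by the block, had a log2 change of 0.22 ± 0.07 (adjusted p = 0.0732, and 0.025 with the block) without overlap between the groups. In all, 8 of the 39 genes had every venetoclax Tcon library above every vehicle Tcon library and 3 had every one below, where 16.3% of all genes did not overlap.

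Several of these genes had values in the second subset that did not pass. Icam1 had 975.4, 722.7, 702.6 and 797.0 normalized counts in venetoclax Tcon and 675.6, 714.7, 530.9 and 775.6 in vehicle Tcon. Icam2 had 1601.8, 1572.1, 1632.1 and 1591.9 in venetoclax Tcon and 1662.9, 1762.2, 1856.5 and 1794.5 in vehicle Tcon. Icam1 overlapped between those groups, while Icam2 was lower in every venetoclax Tcon library, with a log2 change of -0.14 ± 0.06 (adjusted p = 0.184, limma). Itga3 had 75.47, 116.4, 90.73 and 80.98 normalized counts in venetoclax Tcon and 72.77, 94.96, 78.1 and 105.3 in vehicle Tcon. Selplg had 5068.1, 4795.7, 4766.3 and 5132.1 in venetoclax Treg and 5330.4, 4883.2, 5153.4 and 4909.3 in vehicle Treg. Both overlapped, with log2 changes of 0.05 ± 0.18 for Itga3 in Tcon and -0.04 ± 0.05 for Selplg in Treg.

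Several chains better known from other cell types were low in Tcon. Itgax, Itgad, Itgb4 and Itgb5 had means of at most 17.92 normalized counts in each group, and none of these passed. Itgam, a myeloid integrin chain, averaged 218.1 normalized counts in venetoclax Tcon and 165.9 in vehicle Tcon, but 68.7% of its exonic bases are shared with Gm49368 on the same strand, so its count is uncertain. Itga10 shares 33.5% of its exonic bases with Gm42957 on the same strand and Vcl shares 25.5% with Ap3m1 on the other strand, and the same applies to them.

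**Figure D3:**
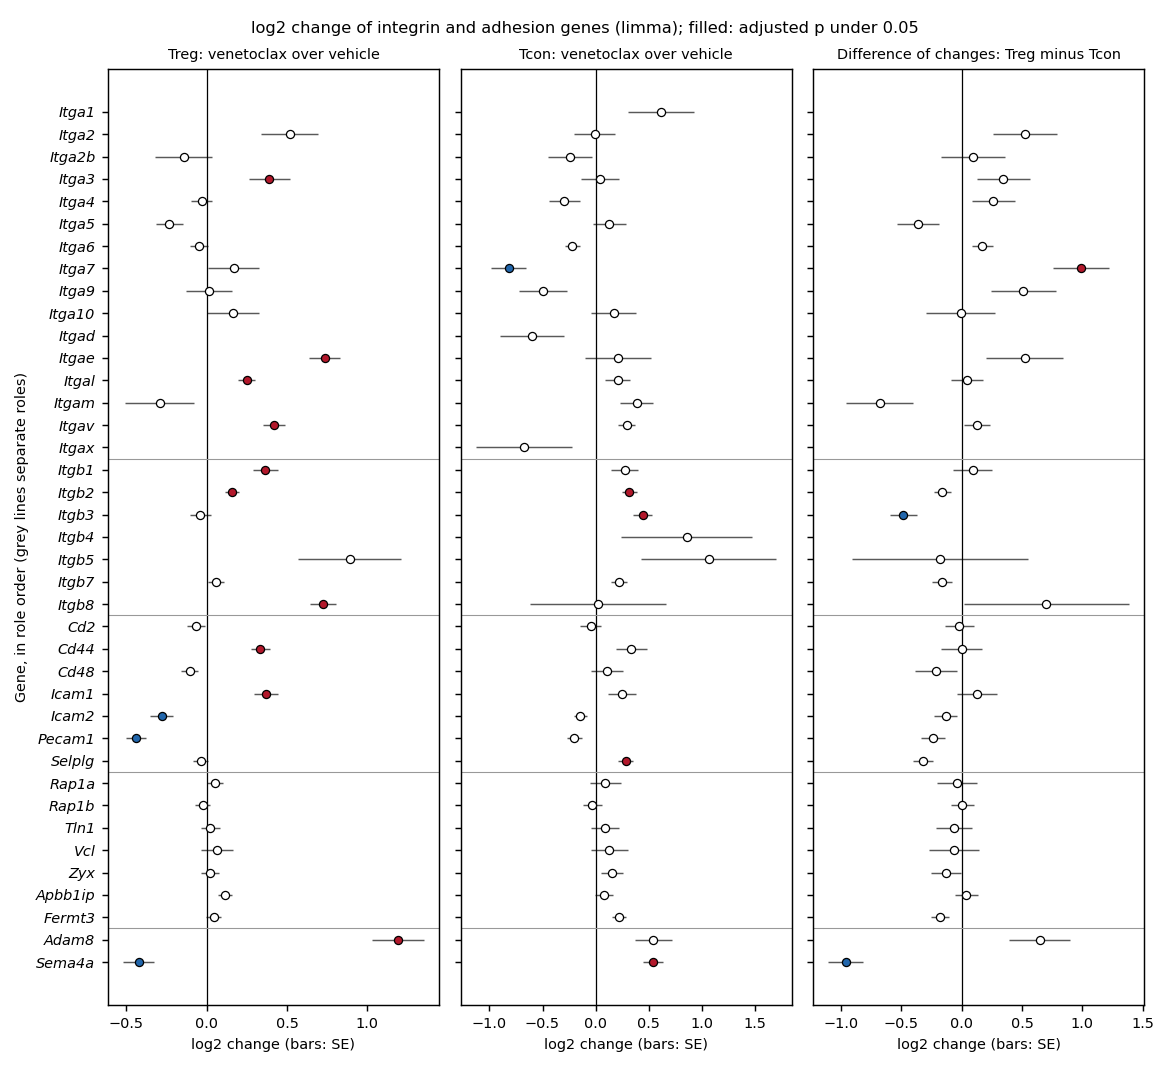
log2 change of each gene with its SE in Treg (left), in Tcon (middle) and the difference between the 2 changes (right), in the order of roles; filled points passed an adjusted p of 0.05, red for higher and blue for lower. Genes with few reads, such as Itgb4, Itgb5 and Itgax in Tcon, have the longest bars, and no point of the 7 activators and adaptors is filled.

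The difference between subsets was tested as an interaction over all 16 libraries. The main fit took these libraries as independent and did not pair Treg and Tcon of the same code. All intervals given for a difference come from that fit. Of the 35 shared genes 3 passed, which is 8.57%, where 1.3% of all 10774 shared genes did. The change was lower in Treg than in Tcon for Sema4a and Itgb3 and higher for Itga7, where 0.965% of all genes were lower and 0.334% higher. Libraries with the same code deviated together in Treg and Tcon, and with the code as a block 5 passed, where 3.61% of all genes did, adding Selplg (adjusted p = 0.0332) and Itgam (0.0457), both lower. Adjusted for the Y-linked level, Sema4a remained (adjusted p = 0.0255), and Itgb3 (0.154) and Itga7 (0.251) did not, where 0.204% of all genes passed. Leaving out 1 library ended the call of Itga7 for 12 of 16 libraries and that of Itgb3 for 12 of 16, with adjusted p up to 0.115 and 0.0952, while that of Sema4a was kept for all 16. Without venetoclax replicates 1 and 3 of both subsets none of the 3 passed by limma (adjusted p = 0.112 for Sema4a, 0.357 for Itgb3 and 0.624 for Itga7). In that fit only 0.0371% of all shared genes passed. The call of Itga7 was also lost among genes averaging 50 or more (0.0516) and with upper quartile scaling (0.0508). For none of the 10 genes that rose in Treg did the difference pass, and the smallest adjusted p was 0.343 by limma, for Adam8. For Cd44 the difference was 0.00 with a 95% interval of -0.36 to 0.35, for Itgav 0.13 with -0.11 to 0.36, and for Itgb8 0.70 with -0.75 to 2.15.

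**Figure D4:**
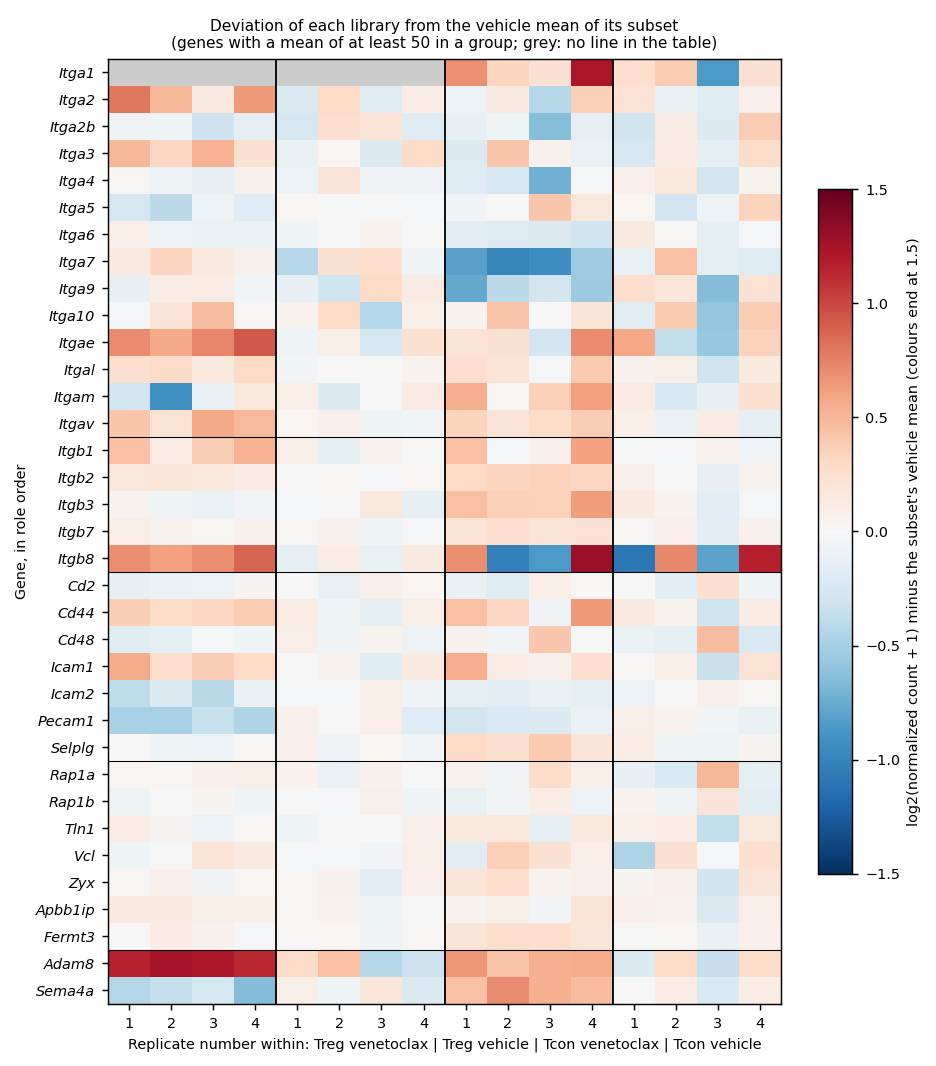
Deviation of each library from the vehicle mean of its subset, as log2 of the normalized count plus 1 (colour, ending at 1.5), for the 35 genes that average at least 50 in a group; columns are replicates 1 to 4 of venetoclax Treg, vehicle Treg, venetoclax Tcon and vehicle Tcon, and grey marks a gene with no line. Itgae, Itgb8 and Adam8 are red in all 4 venetoclax Treg libraries, and replicate 3 of vehicle Tcon stands apart from the other vehicle libraries for several genes.

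Other genes of the adhesion pathway were counted in 5 lists. Of 23 measured genes of inside-out activation 6 passed in Treg, 1 higher and 5 lower, which is 26.1% where 19.6% of all genes did. In Tcon 1 of the 23 passed, which was lower and is 4.35% where 6.91% of all genes did, and with the replicate block 3 did, where 16.8% of all genes passed. With the Y-linked covariate 3 of the 23 passed in Treg, a smaller share than the 14.4% of all genes that did. In Tcon 0 passed with it by limma, where 3.06% of all genes did and 2 of the 23 had an unadjusted p under 0.05. Rasgrp2, the exchange factor that loads Rap1 in response to calcium, averaged 2680.6 ± 194.9 normalized counts in venetoclax Treg and 3622.6 ± 334.2 in vehicle Treg, with a log2 change of -0.43 (adjusted p = 0.00122, limma). The difference of its changes, Treg minus Tcon, was -0.50 (adjusted p = 0.0486), a call lost with the Y-linked covariate (0.328). Prkcq, a kinase of T cell receptor signalling, changed by -0.19, Sipa1l1, which inactivates Rap1, by -0.18 and Cyth2 by -0.19 in Treg. Rasgrp1 fell in both subsets, by 0.16 in Treg and by 0.27 in Tcon. With the Y-linked covariate neither call of Rasgrp1 held (adjusted p = 0.127 in Treg and 0.169 in Tcon), nor did that of Cyth2 (0.0789). Leaving out 1 library ended the Treg call of Cyth2 for 7, of Sipa1l1 for 5 and of Rasgrp1 for 6 of 8 libraries, the Tcon call of Rasgrp1 for 7 of 8 and the difference of Rasgrp2 for 13 of 16.

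Of 36 measured genes of focal adhesion and outside-in signalling 5 passed in Treg, which is 13.9% where 19.6% of all genes did, and 0 of 35 did in Tcon by limma, where 7 had an unadjusted p under 0.05. The block let 3 of the 35 pass in Tcon (8.57%, against 16.8% of all genes), among them Ptk2, the focal adhesion kinase, which was lower (adjusted p = 0.0043, and 0.022 with the Y-linked covariate). In Treg the actin linkers Actn1 (-0.32), Evl (-0.27) and Ezr (-0.23) fell, and the kinase Src rose (0.48; adjusted p = 0.00226, limma), as did the paxillin relative Lpxn, whose call was lost with the Y-linked covariate (0.0554). Of 21 measured genes of selectins and their ligands 9 passed in Treg, 4 higher and 5 lower, which is 42.9% where 19.6% of all genes did. Chst2, a sulfotransferase of selectin ligands, rose by 0.66 (adjusted p = 0.00226, limma), the sheddases Adam10 and Adam17 rose by 0.23 and 0.22, and Tpst1, which sulfates tyrosines, fell by 0.43. With the Y-linked covariate 4 of the 21 passed, all higher, which is 19.0% where 14.4% of all genes did, and Tpst1 did not (adjusted p = 0.0595). In Tcon Adam17 (0.27) and Tpst2 (0.33) were the 2 of 21 that passed, both higher, which is 9.52% where 6.91% of all genes did. There 3 passed with the replicate block (14.3%, against 16.8% of all genes). With the Y-linked covariate 0 did by limma, where 3.06% of all genes passed and 3 of the 21 had an unadjusted p under 0.05 (adjusted p = 0.0876 for Adam17 and 0.0932 for Tpst2). Leaving out 1 library ended the call of Adam17 in Tcon for 4, of Tpst2 for 7 and of Tpst1 in Treg for 2 of 8 libraries.

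Of 35 measured other adhesion molecules 13 passed in Treg, 8 higher and 5 lower, which is 37.1% where 19.6% of all genes did. Slamf1, a self-ligand of lymphocytes, rose by 0.34, the epithelial adhesion gene Epcam by 0.81, the tetraspanin Cd82 by 0.30 and the neuropilin Nrp1 by 0.34 on the log2 scale. In Tcon Slamf1 rose by 0.62 (adjusted p = 0.00132, limma), while Cd5 and Cd6, scavenger-type receptors of T cells, fell by 0.39 and 0.36, and these were the 3 of 38 that passed, which is 7.89% where 6.91% of all genes did. The Tcon calls of Cd5 and Cd6 were lost with the Y-linked covariate (adjusted p = 0.0508 and 0.0864), and that of Cd6 also for 4 of 8 libraries left out. Slamf1 was the 1 of 38 that passed with that covariate, where 3.06% of all genes did. With the replicate block 8 of the 38 passed in Tcon, 4 higher and 4 lower, which is 21.1% where 16.8% of all genes did. In that fit the semaphorin Sema4d and the galectin Lgals1 had an adjusted p of 0.00165 each, against 0.0884 and 0.0727 without the block. Of the matrix ligands of integrins the laminin chains Lamc1 (0.59) and Lama5 (0.68) rose in Treg, 2 of 10 measured, where 19.6% of all genes passed. In Tcon 0 of 8 passed by limma, where 1 had an unadjusted p under 0.05. Under the block Nrros alone passed (adjusted p = 0.016), where 16.8% of all genes did. Nrros was on that list but encodes a membrane protein rather than a matrix ligand.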

How the data were processed

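Total RNA of Treg and Tcon was sequenced on an Illumina NovaSeq, and HISAT2, SAMtools and the build mm10 are named in the submitters' processing notes. The sources used here name no counter, strand setting or gene filter. Per the file headers and values, the deposited signal of a library is its read counts as the authors scaled them, by 1 size factor each. Reads were recovered as whole multiples within a tolerance of 0.01, and the 2 tables were normalized separately. The authors' deposited log2 fold change and p-value columns were copied for comparison only. By the adjusted p-values in the authors' deposited table, 13 of these genes passed 0.05 in Treg, where 2270 of 11067 genes did, and 8 in Tcon, where 1257 of 11171 did. Repeated lines (40 in Tcon, 43 in Treg) were removed.

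The design assumed counts as a first choice. Because the values are normalized, limma 3.58.1 (R 4.3.3) was applied to log2 of the value plus 1, with a trended prior and Benjamini-Hochberg adjustment over all genes at 0.05, per subset and as an interaction over 16 libraries. Alternatives were pseudocounts of 0.5 and 8, a mean of at least 50, upper quartile and TMM scaling, edgeR 4.0.16, DESeq2 1.42.0, the replicate block, the Y-linked covariate and leaving out libraries. A mean of at least 50 was reached by 34 of 35 genes in Treg and 32 of 39 in Tcon. The fits were tested on simulated data, where DESeq2 made more false calls than limma and edgeR. Same-numbered libraries had deviations correlated at 0.119 to 0.614 between venetoclax and vehicle Tcon and at -0.0395 to 0.414 between venetoclax and vehicle Treg. Between Treg and Tcon they were correlated at 0.371 to 0.697, and numbers were taken to pair libraries there. That pairing entered the block alternative of the difference and not its main fit. Between venetoclax and vehicle, replicate 1 did not correlate best with its own number in either subset. The block within a subset is therefore given only as an alternative. Coordinates are from RefSeq on GRCm38.p6, and exonic lengths and overlaps from GENCODE vM21. All 39 genes are accounted for, those past the threshold and the LFA-1 chains, Itgae and Cd44 with every library, and up to 4 genes with the smallest p from each pathway list. The genes and the lists were chosen with earlier results of these data known, so no test was made over a list.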

Additional observations from a re-analysis of the deposited data

Results flagged for a closer look

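The changes of 3 genes differed between the subsets by the test of the difference itself. The change in Treg minus that in Tcon was -0.96 for Sema4a, -0.48 for Itgb3 and 0.99 for Itga7 on the log2 scale.

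In 14 of 148 gene and group combinations 1 library stood apart from the other 3 of its group by Dixon's criterion, which chance gives in about 1 of 20 groups. In vehicle Tcon replicate 3 did so for 5 genes. It was low for Itga1 (23.22 normalized counts, others 50.65 to 55.98), Itga9 (43.27, others 77.97 to 81.62) and Apbb1ip (4250.3, others 5129.8 to 5268.4), and high for Cd48 (5251.9, others 3246.5 to 3550.0) and Rap1a (6295.7, others 3782.4 to 4063.3). In venetoclax Tcon replicate 3 was low for Tln1 (21057.6, others 25817.5 to 26014.5) and Itga2b (33.27, others 47.4 to 50.02), and replicate 2 was high for Itgb7 (21101.3, others 20551.5 to 20573.6). In vehicle Tcon replicate 2 was high for Itga7 (318.9, others 204.6 to 217.3) and replicate 4 for Itgb5 (12.91, others 0.9996 to 2.95). In venetoclax Treg replicate 1 was high for Itga6 (8213.2, others 7141.7 to 7185.0). In vehicle Treg replicate 2 was high for Itga4 (19107.3, others 15754.7 to 16133.9), replicate 4 was high for Vcl (192.9, others 174.3 to 177.1), and replicate 3 was low for Fermt3 (8369.3, others 8796.3 to 8876.9).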

How the results depend on the processing

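No gene of the 39 changed direction while called under any alternative. In Tcon the count of genes passing, 5 by limma, was 10 with DESeq2, 13 with the replicate block, 3 with the Y-linked covariate, 12 without vehicle and venetoclax replicates 3 (where 12.9% of all genes passed) and 0 by limma without venetoclax replicates 1 and 3 (10 with an unadjusted p under 0.05), and leaving out 1 library gave 1 to 9. Over all genes the Tcon count of 772 was 1880 with the replicate block and 306 to 1244 leaving out 1 library. In Treg the 13 became 8 without venetoclax replicates 1 and 3, where fewer samples enter and 5.55% of all genes passed, and 10 to 13 leaving out 1 library. Over all genes of Treg, leaving out 1 library gave 1327 to 2198. The replicate block gave 15 in Treg (12 higher, 3 lower), where 22.3% of all genes passed, though venetoclax and vehicle replicates 1 did not deviate together and each other replicate correlated best with its own number. In Tcon replicate 1 likewise did not correlate best with its own number. The count for the difference between subsets, 3, was 5 with the replicate block, 1 with the Y-linked covariate, 0 by limma without venetoclax replicates 1 and 3 (5 with an unadjusted p under 0.05), and 1 to 3 leaving out 1 library. Without venetoclax replicates 1 and 3, only 0.0371% of all shared genes passed for the difference. For that difference over all shared genes, leaving out 1 library gave 58 to 203. The count without overlap between Treg and Tcon was 23 to 25 in vehicle and 21 to 25 under venetoclax leaving out 1 library. Leaving out a library cannot lower this count, so the range does not show that it is stable. The causes of these shifts were not tested. In Treg Itgae, Itgal, Itgav, Itgb8, Cd44, Pecam1, Adam8 and Sema4a passed under all 18 alternatives. Itgb4, Itgb5, Itgax and Itgad averaged at most 17.92 normalized counts in Tcon, and a change in them was not detectable at this depth.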
